A study of Mus musculus with 16 samples.

Results

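Splenic B cells of mice fed a diet with acetylated starch (HAMSA) were compared with those of mice fed the NP diet, over all 15021 genes that passed the expression filter of the 39179 in the deposited table. The comparison uses 8 of the 16 libraries of the series, 4 from each of the diets, chosen by the diet given in the labels. HAMSA mice, like NP mice, were NOD.LT mice, 15 weeks old, on their diet for 5 weeks with free access to it. NOD.LT is a substrain of the NOD mouse, a model of autoimmune diabetes, and every diet of the series was given to this strain, with no non-diabetic strain beside it. HAMSA denotes high-amylose maize starch carrying acetate, and HAMS, used below as a further comparison, the same kind of starch without the acid. The NP group is called GD in its library names, a treatment note calls a diet Gordons, and neither name is spelled out. The labels give 4 samples a diet and also speak of triplicates, and they do not tie a library to an animal or say whether animals were pooled. Libraries are named here by diet and number: HAMSA 1, 2, 3 and 6, and NP 1, 3, 4 and 5.

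Starch that resists digestion reaches the colon, where bacteria ferment it and where an esterified acid such as acetate is released. Acetate is a short-chain fatty acid that cells sense through G protein-coupled receptors, import through monocarboxylate carriers and turn into acetyl-CoA, which feeds lipid synthesis and histone acetylation. Splenic B cells are mostly follicular and marginal zone cells that rest until antigen or microbial products reach them, and a rested B cell that is stimulated transcribes immediate early genes within minutes. The question the diets pose is which transcripts of these B cells differ after a diet with acetylated starch.

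Before sequencing, the B cells were enriched on magnetic columns by binding and removing the other spleen cells. The 20 B cell identity genes, among them Ms4a1 and Cd79a, had a median log2 fold change of 0.02, and their summed level was 45228 to 57893 CPM (counts scaled to a common library size) in HAMSA and 40979 to 47691 CPM in NP. The defining markers of the labelled cell type were thus present in every library. Gene counts per library were 15053965 to 30723337 in HAMSA and 31707731 to 42752976 in NP, without overlap. The share of reads outside annotated exons was also without overlap, at 11.3% ± 1.09 in HAMSA and 14.8% ± 0.667 in NP (SD, n = 4 each, exact permutation p = 0.0286, two-sided, adjusted 0.0857 over 15 measures). Unmapped reads made up 6.70% ± 2.00 in HAMSA and 3.74% ± 0.158 in NP (exact permutation p = 0.0286, adjusted 0.0857). With 4 against 4 libraries 0.0286 is the smallest p this test can give, and no measure passed after adjustment. Markers of red cell precursors, T cells, NK cells and neutrophils were higher in most HAMSA libraries and macrophage markers lower, and their values stand with the genes of those cells below. HAMSA 2 and HAMSA 3 stood apart from HAMSA 1 and 6 in the balance of GC-rich against GC-poor genes, which is described at the end. How far depth, read classes, other cells and this balance account for any difference below was not tested. Where a fit with such a term is given, several of these measures differ between the diets, so the fit cannot tell them apart from diet.

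Of the 15021 genes tested, 212 (1.41%) differed at a Benjamini-Hochberg adjusted p under 0.05 in edgeR's quasi-likelihood test, 91 (0.606%) higher and 121 (0.806%) lower in HAMSA. The median log2 fold change was 0.58 among the higher genes and -0.75 among the lower ones, and sizes ran between 0.28 and 4.72. Over all genes the median was -0.00038 and 50.0% had a positive sign. The smallest adjusted p was 0.00787, and 3772 genes (25.1%) had an unadjusted p under 0.05. The 2 genes just inside the threshold were Srek1 at -0.39 and Fam110a at 0.71, and the 2 just outside were Agpat6 at 0.35 and Pnrc1 at 0.41. CPM without overlap between 4 and 4 libraries were common, in 2462 genes (16.4%, of them 7.72% of all genes higher and 8.67% lower), and were part of the rule by which genes were named, so they add no support. The count of genes past the threshold depended on single libraries: it was 0 without NP 4 (edgeR, 2639 at an unadjusted p under 0.05), 1 without HAMSA 2, 3 without NP 5, 4 without NP 3, 20 without HAMSA 1 and 589 without HAMSA 6. With scaling by library totals in place of TMM, 84 genes were higher and 260 lower, against 91 and 121. In the plot of fold change against p, the genes with the smallest p are immediate early genes on the higher side and Acp2 on the lower side.

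**Figure D1:**
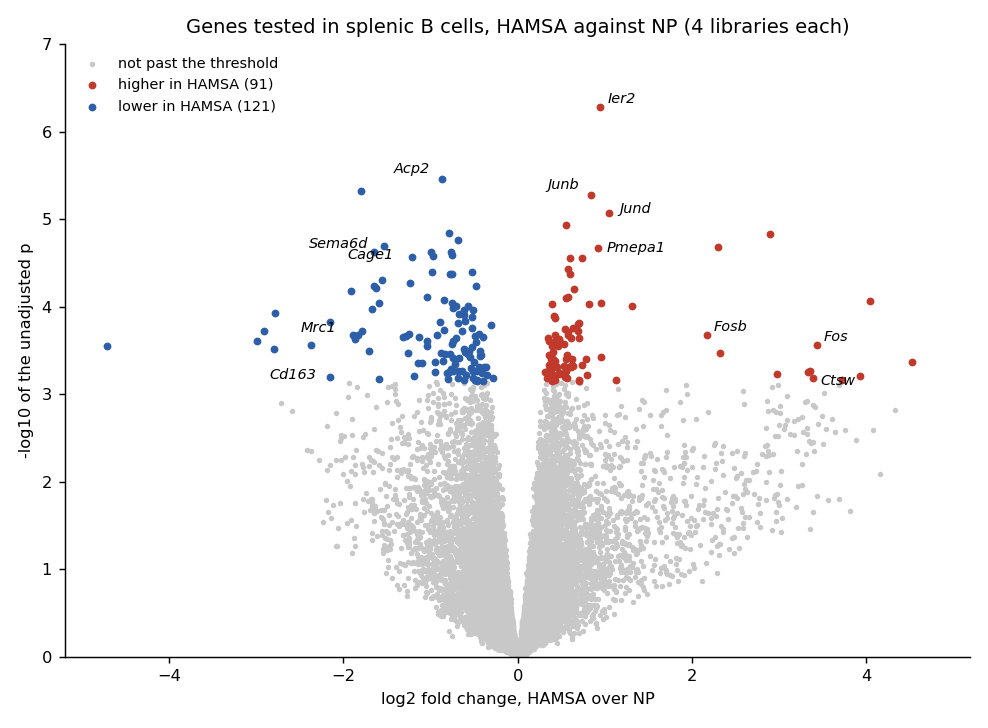
Each point is 1 of 15021 genes, placed by its log2 fold change of HAMSA over NP (horizontal axis) and the -log10 of its unadjusted p (vertical axis). Red marks the 91 genes past the threshold and higher in HAMSA, blue the 121 lower, grey the rest, and Ier2 lies at the top.

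The immediate early genes held the clearest group of rises. Of 29 tested members of a list of 30, 8 rose and 0 fell, against 0.606% of all genes that rose, and 24 of the 29 had a positive fold change, with a median of 0.46. The 8 were Ier2, Junb, Jund, Dusp2, Ier5, Fosb, Fos and Btg2. The products of Fos, Fosb, Junb and Jund are the subunits of the AP-1 transcription factor, Ier2 and Ier5 are nuclear proteins induced by growth factors, Dusp2 is a nuclear phosphatase that switches off ERK-type kinases, and Btg2 restrains proliferation. The other members did not pass the test, among them Jun (1.14), Dusp1 (0.85), Nr4a1 (0.59), Egr1 (0.31) and Myc (-0.17), all as log2 fold changes.

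Ier2 had the smallest p of all genes. Its level was 114, 113, 107 and 119 CPM in HAMSA 1, 2, 3 and 6, and 60.03, 61.1, 55.3 and 57.99 CPM in NP 1, 3, 4 and 5. The 4 HAMSA libraries lay close together and every one was well above the highest NP library. The log2 fold change was 0.95 ± 0.12 (SE, adjusted p = 0.00787, edgeR), and it stayed past the threshold in 7 of 8 fits that each left out 1 library (adjusted p 0.0760 without NP 4).

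Junb stood at 129, 115, 95.01 and 105 CPM in the HAMSA libraries, against 62.3, 69.1, 58.4 and 58.5 CPM in the NP libraries, a log2 fold change of 0.84 ± 0.13 (adjusted p = 0.0197, edgeR). Jund, the AP-1 subunit that resting cells already express, stood at 323, 387, 361 and 269 CPM in HAMSA and 174, 193, 165 and 115 CPM in NP, with a log2 fold change of 1.05 ± 0.16 (adjusted p = 0.0211, edgeR). Neither gene's groups overlapped. For Jund the 2 highest libraries were HAMSA 2 and 3, and for Junb they were HAMSA 1 and 2. Dusp2 was even across libraries of a diet, at 180.2, 185, 187 and 185 CPM in HAMSA and 124, 121, 117 and 125 CPM in NP (log2 fold change 0.60 ± 0.10, adjusted p = 0.0211, edgeR).

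Fos and Fosb had the widest spread. Fos was at 36.4, 14.2, 2.93 and 1.91 CPM in HAMSA 1, 2, 3 and 6, and 1.44, 1.56, 1.08 and 1.10 CPM in NP 1, 3, 4 and 5. HAMSA 1 was far above the rest, HAMSA 6 was only just above the highest NP library, and the log2 fold change was 3.43 ± 0.74 (adjusted p = 0.0395, edgeR). Fosb followed the same order of HAMSA libraries, with 18.8, 6.82, 3.86 and 3.24 CPM against 1.87, 1.73, 2.17 and 1.56 CPM in NP (2.17 ± 0.46, adjusted p = 0.0381, edgeR). Without HAMSA 1 the log2 fold changes were 2.29 for Fos and 1.34 for Fosb, and both missed the threshold. Btg2 was at 293, 282, 331 and 328 CPM in HAMSA and 225, 222, 208 and 244 CPM in NP (0.46 ± 0.10, adjusted p = 0.0395, edgeR). Ier5, named after its values were seen, averaged 391 ± 12.5 CPM in HAMSA and 293 ± 26.01 CPM in NP (SD, n = 4 each, log2 fold change 0.42 ± 0.08, adjusted p = 0.0357, edgeR).

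Immediate early genes are known for promoters with cyclic AMP response elements (CRE) and serum response elements, so the 250 bases before the start of 5 of the genes that rose are shown, 4 with the core of a CRE and Dusp2 without one. The sequences are RefSeq's on GRCm38.p6, written 5′ to 3′ along the gene's strand, with matches to the CRE core site TGACG, the full CRE TGACGTCA and the TATA box TATAAA in capitals. The Fos window is chr12:85473640-85473889 (+ strand), with core sites that begin 129 and 66 bases before the start and a TATA box 33 bases before it.
Fos: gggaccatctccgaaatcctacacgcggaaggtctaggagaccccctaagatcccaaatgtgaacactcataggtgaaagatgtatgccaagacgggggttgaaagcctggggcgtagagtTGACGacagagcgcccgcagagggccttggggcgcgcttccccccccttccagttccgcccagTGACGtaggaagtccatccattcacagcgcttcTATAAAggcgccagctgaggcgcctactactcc
The Fosb window is chr7:19310046-19310295 (- strand), with 1 core site 60 bases before the start.
Fosb: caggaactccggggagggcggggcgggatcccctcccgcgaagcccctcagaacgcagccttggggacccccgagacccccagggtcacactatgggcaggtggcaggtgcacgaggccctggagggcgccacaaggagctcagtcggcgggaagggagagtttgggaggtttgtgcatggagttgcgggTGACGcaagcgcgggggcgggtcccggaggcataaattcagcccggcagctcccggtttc
The Junb window is chr8:84978749-84978998 (- strand), with 1 core site 106 bases before the start.
Junb: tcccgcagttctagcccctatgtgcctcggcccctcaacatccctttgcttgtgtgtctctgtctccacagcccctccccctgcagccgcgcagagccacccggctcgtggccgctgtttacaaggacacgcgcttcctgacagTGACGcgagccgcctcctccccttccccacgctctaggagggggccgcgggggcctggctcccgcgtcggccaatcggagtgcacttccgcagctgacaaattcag
The Btg2 window is chr1:134079156-134079405 (- strand), with a full CRE, which holds the core site on either strand, 166 bases before the start.
Btg2: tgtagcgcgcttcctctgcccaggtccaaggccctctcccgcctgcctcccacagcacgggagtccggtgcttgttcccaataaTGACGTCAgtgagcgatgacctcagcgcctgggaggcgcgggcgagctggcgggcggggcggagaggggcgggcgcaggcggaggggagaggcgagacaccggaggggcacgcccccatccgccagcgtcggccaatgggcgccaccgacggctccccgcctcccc
The Dusp2 window is chr2:127335909-127336158 (+ strand), with no core site and an E-box (CACGTG, capitals) that begins 109 bases before the start.
Dusp2: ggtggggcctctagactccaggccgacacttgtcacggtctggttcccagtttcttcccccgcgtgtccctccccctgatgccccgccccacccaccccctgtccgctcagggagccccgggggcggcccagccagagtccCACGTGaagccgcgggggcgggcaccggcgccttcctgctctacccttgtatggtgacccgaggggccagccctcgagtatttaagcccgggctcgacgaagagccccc
Of the 8 immediate early genes that rose, 7 had an entry and 4 of the 7 held a core site, while Dusp2, Ier5 and Jund held none. Of the 21 members that did not pass, 15 had an entry and 8 of the 15 held one. Read on both strands, the core site was present in 28 of 79 promoters (35.4%) of genes that rose, in 19 of 110 promoters (17.3%) of genes that fell, in 3412 of the 13127 promoters of tested genes and in 17.8% of all 32851 in the table. The full CRE, in which the core site is contained, was present in 2 of 79, 1 of 110 and 2.53% of the promoters of tested genes. Promoters of genes that rose were also richer in G and C (median 62.0%) than those of genes that fell (58.8%) and of tested genes (59.2%), and the GC box GGGCGG was present in 62.0%, 44.5% and 55.6% of them. The serum response element, searched by its name as the CArG box, was present in 1 of 79, 1 of 110 and 1.18% of them. Elements more than 250 bases before the start, or after it, lay outside the search. A gene without a match here may therefore still hold the element. These are matches of letters, not bound sites, and 156 of the 212 genes had a promoter entry.

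Of 26 heat shock genes tested, which serve protein folding, 2 rose and 0 fell, against 0.606% of all genes that rose, and 25 had a positive fold change, with a median of 0.49. The 2 were chaperones of mitochondria, Hspd1 (the chaperonin Hsp60) and Hspa9 (mortalin). Hspd1 was at 189.7, 185, 157 and 283 CPM in HAMSA and 136, 109, 111 and 112 CPM in NP (log2 fold change 0.80 ± 0.19, adjusted p = 0.0485, edgeR), with HAMSA 6 the highest and NP 1 the highest of its diet. Hspa9 was at 247, 239, 248 and 262 CPM in HAMSA and 199, 187, 189 and 183 CPM in NP (0.40 ± 0.09, adjusted p = 0.0446, edgeR). The stress-inducible Hspa1a (3.06 ± 0.86, adjusted p = 0.0678) and Hspa1b (2.85 ± 0.84, adjusted p = 0.076) had the widest differences of the list and did not pass in edgeR's test, and as near-identical copies they lose reads that map to both. The median of the list was 0.85 with HAMSA 1 and 6 alone against NP.

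Of 27 genes of the unfolded protein and integrated stress responses, 4 rose and 0 fell, against 0.606% of all genes that rose. The median log2 fold change was 0.32. The pathways sense misfolded protein in the endoplasmic reticulum or a lack of amino acids, and their factors raise chaperones and amino acid genes. Trib3, a pseudokinase induced by the factor ATF4, was at 13.8, 14.2, 10.9 and 12.8 CPM in HAMSA and 8.04, 7.43, 8.45 and 9.14 CPM in NP (0.64 ± 0.12, adjusted p = 0.0297, edgeR). Herpud1, which takes part in the disposal of misfolded protein, was at 212, 211, 237 and 255 CPM in HAMSA and 181, 159, 164 and 174 CPM in NP (0.43 ± 0.09, adjusted p = 0.0381, edgeR). The ER-resident, stress-induced proteins Manf (0.64 ± 0.15) and Creld2 (0.55 ± 0.11) were the other two, and the groups overlapped for none of the 4. Plasma cells, which secrete antibody, express several of these genes at a high level. Of 16 plasma cell genes 1 rose (Creld2, counted in both lists) and 1 fell (Slamf7), against 0.606% and 0.806% of all genes. Of the 16, 12 were positive, and the median was 0.29. Their summed level was 2332.5 to 3010.2 CPM in HAMSA and 1994 to 2329.7 CPM in NP. Their mean log2 CPM was 5.54 to 5.78 in HAMSA and 5.18 to 5.45 in NP, without overlap (exact permutation p = 0.0286, adjusted 0.0857 over 15 measures). The defining markers Sdc1 (0.68 ± 0.20), Jchain (0.84 ± 0.29) and Tnfrsf17 (1.20 ± 0.35) did not pass, and the part of these cells in the stress response values was not tested. Below the threshold lay Atf4 (0.52, adjusted p = 0.0638), Ddit3 (0.42, adjusted p = 0.0638), Asns (1.05, adjusted p = 0.0659) and Hspa5 (0.35, adjusted p = 0.11), all from edgeR.

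Genes of quiescence and homing rose in small numbers. Of 16 quiescence factor genes 2 rose, Klf2 and Btg2, and of 10 follicular B cell genes 2 rose, Klf2 and Ccr7. Both lists had 0 falls, and 0.606% of all genes rose. Klf2 is counted in both lists, and Btg2 was already counted among the immediate early genes. Klf2, a transcription factor that keeps lymphocytes quiescent and sets their homing receptors, was at 405, 397, 486 and 339 CPM in HAMSA and 276, 280.4, 247 and 196 CPM in NP (0.70 ± 0.15, adjusted p = 0.0381, edgeR), with HAMSA 3 the highest. Ccr7, the chemokine receptor that draws B cells towards the T cell zone, was at 212, 207, 216 and 228 CPM in HAMSA and 142, 139.8, 129 and 160.3 CPM in NP (0.60 ± 0.11, adjusted p = 0.0246, edgeR). Every HAMSA library was above every NP library for both genes. The other follicular genes gave mixed signs, from Cd55 at -0.45 to Satb1 at 0.45, and the list's median was -0.06. The transcript for the follicle receptor Cxcr5 (-0.05 ± 0.11) lay within 1 SE of no change.

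**Figure D2:**
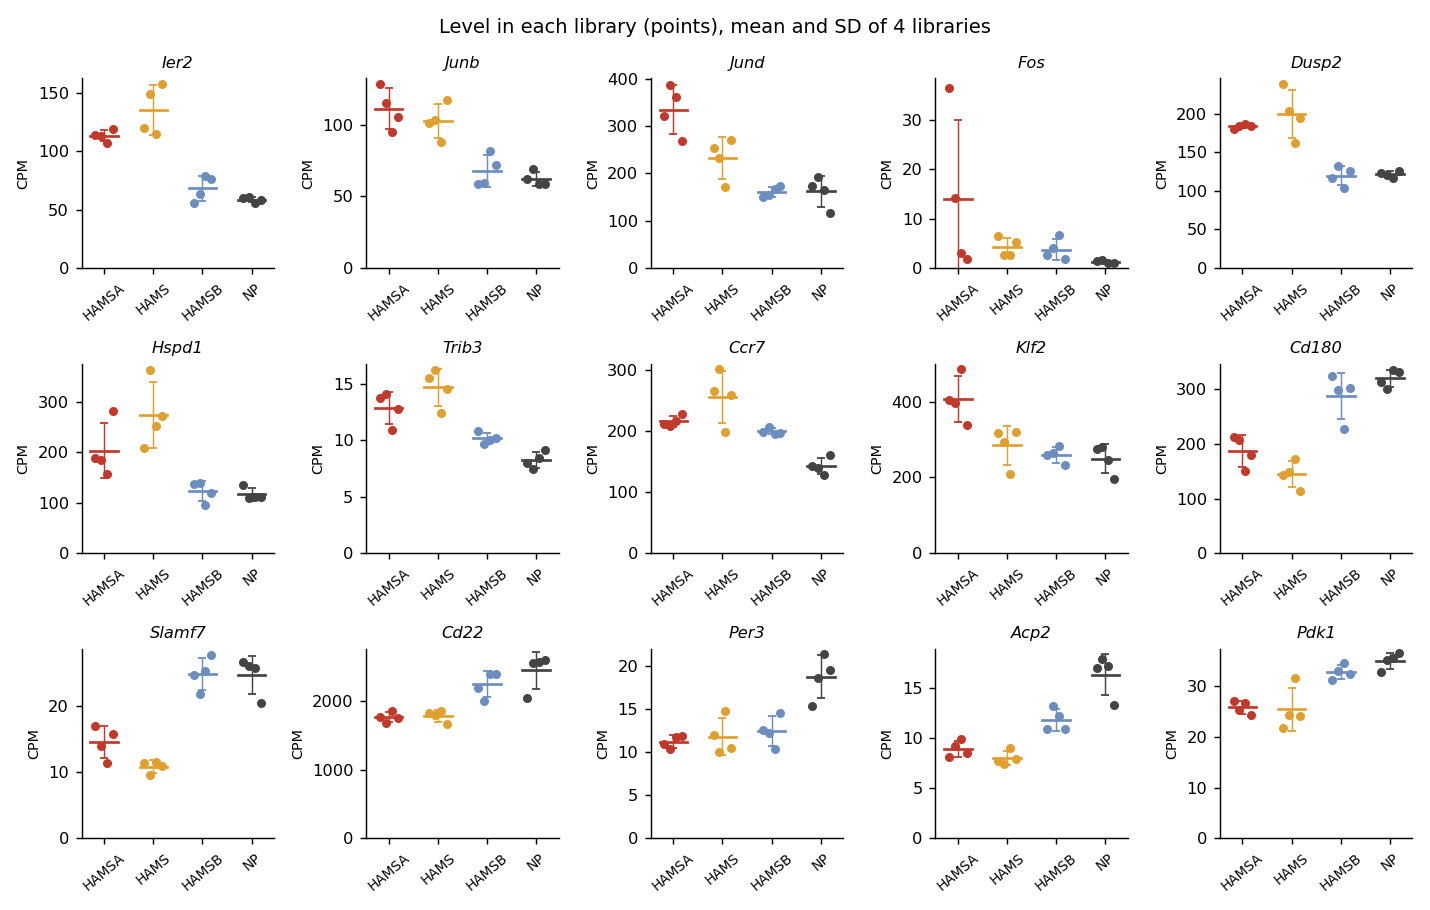
Panels give TMM-scaled CPM (vertical axes, from 0) of 15 genes past the threshold in each library of HAMSA, HAMS, HAMSB and NP. Points are libraries, horizontal lines means and bars SD of 4 libraries (the bar of Fos is cut at 0), and in each panel the 4 HAMSA points lie on 1 side of the 4 NP points.

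Among the other large rises, Pmepa1, a target of TGF-beta that damps its signalling, was at 34.00, 37.7, 41.7 and 34.7 CPM in HAMSA and 24.5, 16.4, 14.3 and 22.7 CPM in NP (0.93 ± 0.16, adjusted p = 0.0211, edgeR), the only call among 16 TGF-beta pathway genes. Pim3, a serine/threonine kinase that favours survival and growth, was at 40.3, 45.1, 43.1 and 38.5 CPM in HAMSA and 27.6, 28.3, 27.2 and 30.3 CPM in NP (0.56 ± 0.09, adjusted p = 0.0211, edgeR), the only call among 13 genes of the Myc network and Pim kinases. Csrp2 (0.96 ± 0.19), which encodes a LIM domain protein, and Hopx (0.82 ± 0.16), which encodes an atypical homeodomain protein, rose without overlap. Ppp1r35 rose with a gap inside the HAMSA group, at 29.1, 55.9, 57.99 and 26.6 CPM against 21.9, 21.9, 21.3 and 21.99 CPM in NP (0.96 ± 0.21, adjusted p = 0.0434, edgeR). HAMSA 2 and 3 were high and HAMSA 1 and 6 only slightly above NP. Tusc1 was likewise highest in HAMSA 2 and 3, at 10.8, 14.7, 14.2 and 8.33 CPM in HAMSA and 7.43, 7.33, 7.64 and 5.53 CPM in NP (0.78 ± 0.17, adjusted p = 0.0439, edgeR). Mt2, a metallothionein that binds zinc and lies below the level set for naming, averaged 3.61 ± 1.46 CPM in HAMSA and 0.727 ± 0.047 CPM in NP (SD, n = 4 each, 2.30 ± 0.39, adjusted p = 0.0211, edgeR). It was the only call among 12 metallothionein and zinc genes and was named after its values were seen. Beside each list of this paragraph with 1 call, 0.606% of all genes rose.

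The lower side held several surface receptors of B cells. Cd180, a Toll-like receptor relative that B cells carry with the partner Ly86, was at 213, 207, 150.1 and 179 CPM in HAMSA and 313, 302, 336 and 331 CPM in NP (-0.77 ± 0.14, adjusted p = 0.0246, edgeR). Every HAMSA library was far below the lowest NP library, and HAMSA 3 was the lowest. It was the only one of 16 Toll-like receptor genes to pass, against 0.806% of all genes that fell. Tlr9 (-0.60 ± 0.15, adjusted p = 0.0581), the adaptor kinase Irak1 (-0.40 ± 0.10, adjusted p = 0.056), Tlr1 (-0.33 ± 0.10, adjusted p = 0.0737) and Tlr6 (-0.39 ± 0.12, adjusted p = 0.0748) lay below the threshold of edgeR's test, and Ly86 was at 0.16 ± 0.17.

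Slamf7, a receptor of the SLAM family on B, plasma and NK cells, was at 16.97, 13.98, 11.4 and 15.7 CPM in HAMSA and 26.6, 26.02, 25.8 and 20.4 CPM in NP (-0.76 ± 0.13, adjusted p = 0.0211, edgeR). The groups did not overlap, with NP 5 the lowest of its diet. Of the other 10 genes of that list 0 passed in edgeR's test, with Slamf1 at -0.47 ± 0.12 (adjusted p = 0.0598) and Slamf6 at -0.39 ± 0.15 (adjusted p = 0.139). Cd22, the sialic acid-binding receptor that restrains B cell receptor signals, was at 1772, 1679.6, 1858 and 1759.5 CPM in HAMSA and 2054, 2569, 2584 and 2604 CPM in NP (-0.47 ± 0.10, adjusted p = 0.0387, edgeR). It was the only call among 20 B cell identity genes and among 26 genes of B cell receptor signalling. Gbp5, an interferon-induced GTPase, was at 43.9, 46.6, 34.8 and 49.8 CPM in HAMSA and 64.5, 57.5, 66.9 and 61.2 CPM in NP (-0.51 ± 0.10, adjusted p = 0.0332, edgeR), the only call in a list of 18 genes that holds such GTPases with Irf1 and Socs1, while 0 of 34 type I interferon response genes passed in edgeR (4 at an unadjusted p under 0.05, 2 in DESeq2 and 0 in limma voom). Zeb2, a repressor needed for age-associated B cells, was at 28.4, 23.1, 16.8 and 28.2 CPM in HAMSA and 42.4, 43.4, 40.9 and 36.9 CPM in NP (-0.76 ± 0.17, adjusted p = 0.0477, edgeR). It was the only call among 13 age-associated B cell genes. Beside each list of this paragraph with 1 call, 0.806% of all genes fell.

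The promoters of Cd180 and Slamf7 are shown as windows without a CRE core site, from the same RefSeq table and on the same build. They are picked examples and make no contrast with the windows above, as 19 of 110 promoters of genes that fell held a core site. The Cd180 window is chr13:102693297-102693546 (+ strand), the first of 2 entries, and held none of the motifs searched.
Cd180: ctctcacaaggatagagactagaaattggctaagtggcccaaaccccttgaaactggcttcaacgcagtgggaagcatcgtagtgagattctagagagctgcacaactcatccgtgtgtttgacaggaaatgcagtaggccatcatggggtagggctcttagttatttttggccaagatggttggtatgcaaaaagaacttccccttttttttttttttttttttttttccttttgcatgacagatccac
The Slamf7 window is chr1:171649000-171649249 (- strand), with 1 AP-1 site (TGANTCA, capitals) that begins 42 bases before the start.
Slamf7: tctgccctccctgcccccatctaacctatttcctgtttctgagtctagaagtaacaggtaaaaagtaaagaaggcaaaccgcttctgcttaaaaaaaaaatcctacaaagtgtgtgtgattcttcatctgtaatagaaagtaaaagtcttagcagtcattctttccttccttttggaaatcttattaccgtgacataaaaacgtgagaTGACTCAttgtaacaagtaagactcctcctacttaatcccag
Such an AP-1 match was present in 1 of 79 promoters (1.27%) of genes that rose, in 7 of 110 (6.36%) of genes that fell and in 4.53% of those of tested genes. Other motifs searched were the heat shock element core GAANNTTC (2.53%, 5.45% and 5.00%), the E-box CACGTG (8.86%, 8.18% and 8.04%) and the NF-kappaB site (8.86%, 7.27% and 8.77%), in the same order of groups.

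Marginal zone B cell genes lay below 0 in 15 of 17 members tested, with a median log2 fold change of -0.28, but 0 of 17 passed in edgeR (4 at an unadjusted p under 0.05, 1 in DESeq2 and 0 in limma voom). Cr2, the complement receptor that marginal zone cells carry at a high level, was at 2012, 1664, 1608 and 2115 CPM in HAMSA and 2571, 2405, 2789.9 and 2937 CPM in NP (-0.53 ± 0.16, adjusted p = 0.0838, edgeR). All 4 HAMSA libraries were below the lowest NP library. Notch2 (-0.36 ± 0.17), whose signal makes these cells, Cd1d1 (-0.38 ± 0.20) and Cd9 (-0.37 ± 0.23) had the same sign. In a preparation of whole B cells, fewer cells of a type and less RNA per cell cannot be told apart. Fcrl5, an inhibitory receptor listed with B-1 and age-associated cells, was at 92.2, 71.01, 46.7 and 91.2 CPM in HAMSA and 141, 134, 159 and 136 CPM in NP (-0.92 ± 0.24, adjusted p = 0.0603, edgeR).

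The largest falls that the naming rule took outside these lists included Sema6d, a transmembrane semaphorin, at 1.57, 1.68, 1.46 and 1.14 CPM in HAMSA and 5.95, 4.02, 4.79 and 3.68 CPM in NP (-1.65 ± 0.28, adjusted p = 0.0211, edgeR). Acp2, the lysosomal acid phosphatase, was at 8.10, 9.19, 9.92 and 8.46 CPM in HAMSA and 16.9, 17.8, 17.1 and 13.3 CPM in NP (-0.87 ± 0.13, adjusted p = 0.0197, edgeR). With Ier2, Junb, Jund and Slamf7 it was 1 of 5 among 43 named calls that stayed past the threshold in at least 5 of the 8 fits without 1 library. Zc3h6, a zinc finger gene, was at 10.6, 9.53, 7.52 and 11.95 CPM in HAMSA and 17.2, 20.4, 20.2 and 20.3 CPM in NP (-0.98 ± 0.17, adjusted p = 0.0211, edgeR). Per3, a clock gene, was at 10.99, 10.3, 11.7 and 11.9 CPM in HAMSA and 15.4, 18.7, 21.4 and 19.6 CPM in NP (-0.74 ± 0.14, adjusted p = 0.0332, edgeR). It was the only call among 17 clock genes, whose median was -0.06, while 0.806% of all genes fell. Nedd4l, a ubiquitin ligase that acts on membrane proteins, was at 60.7, 51.1, 74.2 and 70.1 CPM in HAMSA and 84.1, 113, 145 and 134 CPM in NP (-0.89 ± 0.18, adjusted p = 0.0377, edgeR), with NP 1 close to the HAMSA libraries. Falls of low-level transcripts included Cage1 (-1.21 ± 0.21), Frmd4b (-1.29 ± 0.27), Fbxo48 (-1.10 ± 0.25), Agbl3 (-0.99 ± 0.18), whose product trims glutamate chains from tubulin, and Spred3 (-0.95 ± 0.22), an inhibitor of the Ras pathway. Dynlt1c (-1.05 ± 0.20) has near-identical copies among the dynein light chain genes, so it may lose reads that map to several of them. Transcripts named by clone or gene model, pseudogenes and immunoglobulin V, D and J segments together made up 32 of the 121 genes that fell and 7 of the 91 that rose. Their share among all tested genes was not counted, so these counts have no background beside them.

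Genes that sense or use acetate are of interest because the diet carries that acid. Of 10 short-chain fatty acid receptor and carrier genes, 7 passed the expression filter and 0 of the 7 passed in edgeR (3 at an unadjusted p under 0.05, 1 in DESeq2 and 0 in limma voom), with a median of 0.36. Ffar2, the receptor for acetate, was at 15.8, 34.8, 30.6 and 12.7 CPM in HAMSA and 24.9, 28.9, 31.1 and 34.1 CPM in NP (-0.35 ± 0.59, adjusted p = 0.726, edgeR), and HAMSA 2 lay above and HAMSA 1 and 6 below all NP libraries. Ffar3, its relative, was at 0.643, 0.924, 2.06 and 0.445 CPM in HAMSA and 0.583, 0.518, 1.002 and 1.003 CPM in NP (0.36 ± 0.41). Hcar2, listed in the table under the older symbol Niacr1, is the receptor for butyrate and niacin and was at 1.06, 0.693, 0.466 and 0.064 CPM in HAMSA and 1.10, 0.988, 0.975 and 0.676 CPM in NP (-0.63 ± 0.70). The carrier Slc16a1 was at 20.99, 29.5, 11.7 and 14.7 CPM in HAMSA and 12.2, 14.3, 7.69 and 6.58 CPM in NP (0.92 ± 0.35, adjusted p = 0.13, edgeR), Slc16a3 at 1.11 ± 0.37, Slc16a7 at 0.14 ± 0.27, and their chaperone Bsg at 0.42 ± 0.14.

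Among 20 acetate and acetyl-CoA enzyme genes, 1 fell, against 0.806% of all genes, and 0 rose. It was Pdk1, the kinase that blocks pyruvate dehydrogenase, at 27.2, 25.2, 26.7 and 24.3 CPM in HAMSA and 32.9, 35.2, 35.7 and 36.7 CPM in NP (-0.44 ± 0.10, adjusted p = 0.0467, edgeR). The groups did not overlap. Acss2, which makes acetyl-CoA from acetate, was at 0.44 ± 0.17 (adjusted p = 0.134), its mitochondrial relative Acss1 at -0.03 ± 0.09, and Acly, which makes acetyl-CoA from citrate, at -0.14 ± 0.08. Of 11 histone deacetylase genes, which remove the acetyl mark, 0 passed in edgeR (median 0.01, 1 at an unadjusted p under 0.05, 0 in DESeq2 and limma voom). Of 12 histone acetyltransferase genes, which set it, 0 passed in edgeR (median -0.21, 3 at an unadjusted p under 0.05, 1 in DESeq2 and 0 in limma voom). The members with the smallest p were Hdac2 at 0.20 ± 0.09, Kat6b at -0.54 ± 0.17 (adjusted p = 0.0944) and Hat1 at 0.47 ± 0.16 (adjusted p = 0.103, edgeR).

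Gene groups of growth had positive medians and few calls in edgeR. Of 41 cell cycle genes 1 rose, against 0.606% of all genes. A positive fold change was seen in 40, with a median of 0.69 (31 at an unadjusted p under 0.05, 6 in DESeq2 and 0 in limma voom). The call was Cdt1, which licenses replication origins, at 90.1, 92.04, 99.9 and 103 CPM in HAMSA and 64.3, 70.1, 70.3 and 72.3 CPM in NP (0.47 ± 0.10, adjusted p = 0.0387, edgeR). Of 52 nuclear genes of oxidative phosphorylation 49 were positive (median 0.36) and 0 passed in edgeR (18 at an unadjusted p under 0.05, 3 in DESeq2 and 0 in limma voom). Of 78 cytosolic ribosomal protein genes 71 were positive (median 0.33) and 0 passed in edgeR (13 at an unadjusted p under 0.05, 1 in DESeq2 and 0 in limma voom). The medians of these 3 lists were smaller without HAMSA 2 and 3: with HAMSA 1 and 6 alone against NP they were 0.33, 0.06 and 0.02. With the percentage of outside-exon reads as a term of the model they were -0.04, -0.13 and -0.20. With the erythroid score as a term they were 0.13, 0.11 and 0.13. The medians of the immediate early (0.73, 0.45 and 0.44) and heat shock genes (0.85, 0.53 and 0.47) did not shrink in this way in the same fits. With the T cell score the growth lists had 0.34, 0.32 and 0.31, immediate early genes 0.40 and heat shock genes 0.32. How far other cells account for these medians was not tested. In the plot of list medians, open circles near 0 beside filled ones to the right mark lists whose median was smaller without HAMSA 2 and 3.

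**Figure D3:**
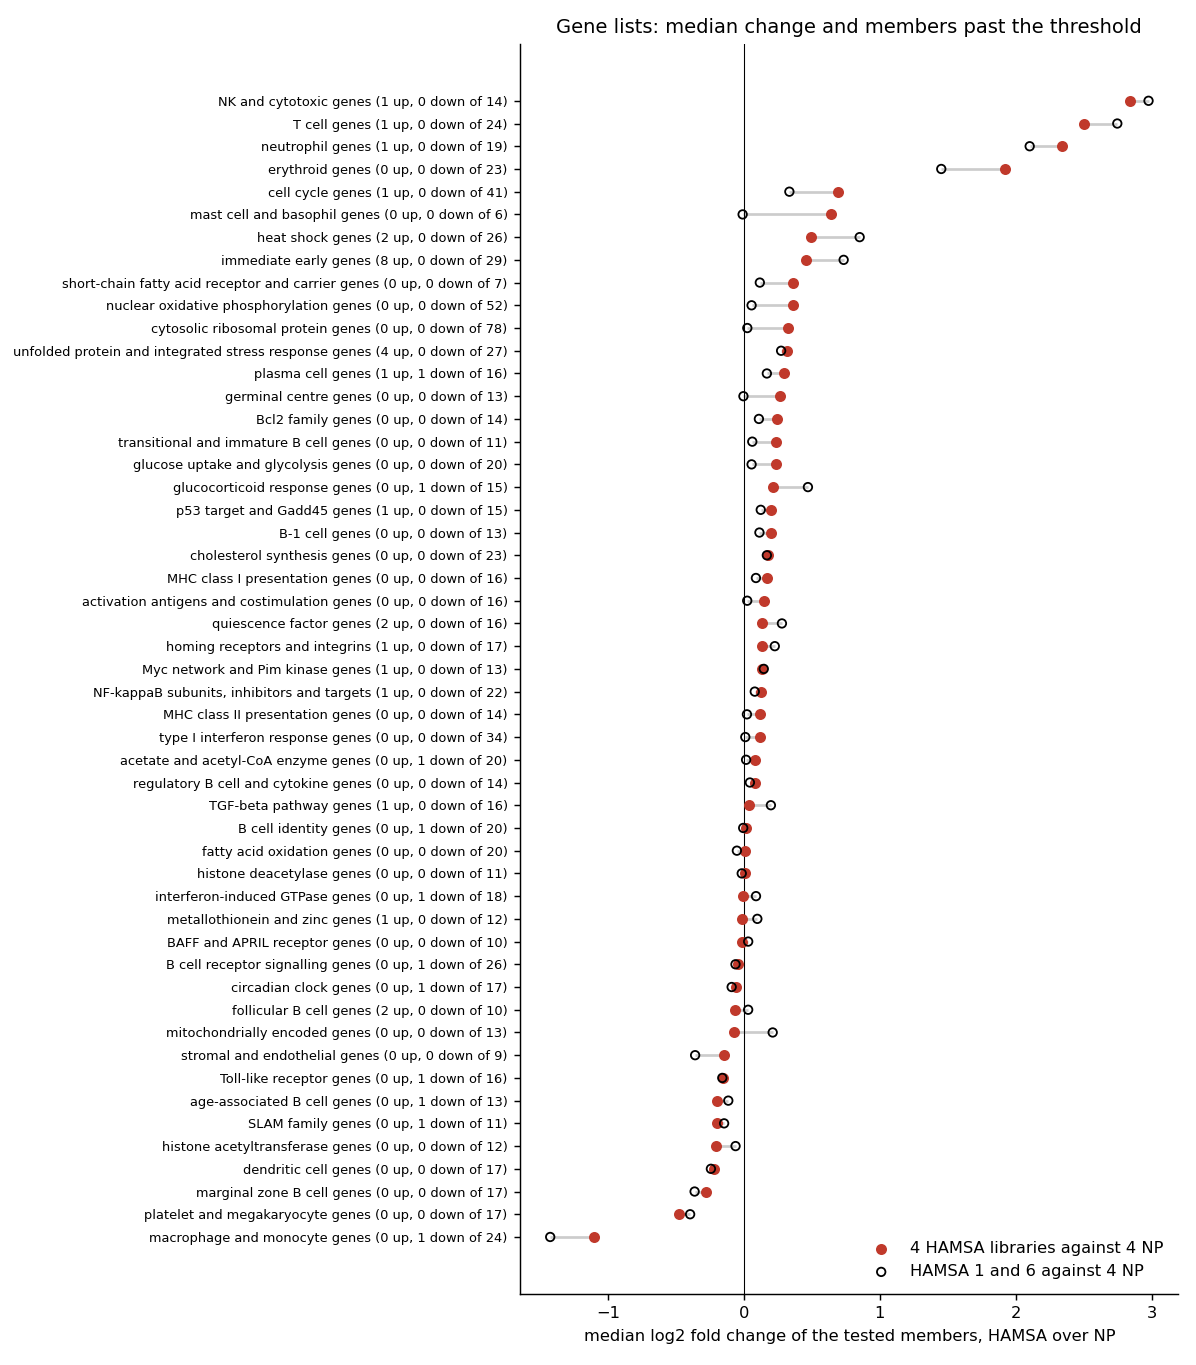
Each row is a gene list, ordered by the median log2 fold change of HAMSA over NP (horizontal axis) in the fit of all libraries (filled) and with HAMSA 1 and 6 as the only HAMSA libraries (open). The row names give the members past the threshold in each direction and the number tested. Ribosomal protein genes lie at 0.33 (filled) and 0.02 (open), and heat shock genes at 0.49 (filled) and 0.85 (open).

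Markers of other spleen cells differed more than most B cell genes and were uneven between libraries of a diet. Several of these shifts over NP were shared by the other starch diets. In HAMSA, HAMS and HAMSB, T cell genes had medians of 2.51, 1.155 and 2.71, and NK and cytotoxic genes 2.84, 0.97 and 2.99. Neutrophil genes had 2.34, 0.58 and 2.05, and macrophage genes -1.11, -2.02 and -1.51. Erythroid genes went apart, at 1.92, -2.07 and 0.96. All 23 erythroid genes tested had a positive fold change (median 1.92) and 0 passed in edgeR (14 at an unadjusted p under 0.05, 2 in DESeq2 and 0 in limma voom). Their summed level was 750.1 to 6985 CPM in HAMSA and 136 to 1699 CPM in NP, so the ranges overlapped. All 24 T cell genes were positive (median 2.51), 23 had an unadjusted p under 0.05, and 16 passed in DESeq2 and 0 in limma voom. The 1 that passed in edgeR, against 0.606% of all genes that rose, was Lck, a kinase that some B cells also express, at 101, 103, 89.01 and 79.97 CPM in HAMSA and 66.5, 61.5, 63.1 and 63.4 CPM in NP (0.55 ± 0.13, adjusted p = 0.0477, edgeR). Their summed level was 304 to 571 CPM in HAMSA and 204 to 259 CPM in NP, and the defining marker Cd3e was counted 844 times in all HAMSA libraries and 168 times in all NP libraries. The T cell and cytotoxic cell markers were highest in HAMSA 1 and 2.

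Of 14 NK and cytotoxic genes the natural killer receptor Ncr1 passed (3.35 ± 0.78), averaging 2.10 ± 0.685 CPM in HAMSA and 0.211 ± 0.212 CPM in NP (SD, n = 4 each), 9 had an unadjusted p under 0.05, 8 passed in DESeq2 and 0 in limma voom, and their summed level was 38.9 to 70.2 CPM in HAMSA and 29.8 to 51.9 CPM in NP. Ctsw, a protease of cytotoxic lymphocytes and 1 of the 12 largest rises, was at 9.93, 6.36, 2.86 and 2.42 CPM in HAMSA and 1.01, 0.444, 0.217 and 0.42 CPM in NP (3.39 ± 0.80, adjusted p = 0.0498, edgeR). Fos, Fosb and Ctsw ranked the HAMSA libraries alike, with HAMSA 1 first and HAMSA 6 last. All 19 neutrophil genes were positive (median 2.34) and Elane passed at under 1 CPM, with 16 at an unadjusted p under 0.05, 9 in DESeq2 and 0 in limma voom, and the summed level was 102 to 406 CPM in HAMSA and 16.5 to 94.0 CPM in NP. Ncr1 and Elane lay below the level set for naming and were named after their values were seen. Each was the only member of its list to pass in edgeR, against 0.606% of all genes that rose.

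Macrophage genes went the other way. Of 24 tested, 20 were negative (median -1.11). Only Cd163 passed in edgeR, against 0.806% of all genes that fell (13 members at an unadjusted p under 0.05, 8 in DESeq2 and 1 in limma voom). The summed level was 293 to 487 CPM in HAMSA and 310.2 to 698 CPM in NP. Cd163, the scavenger receptor for haemoglobin on red pulp macrophages, was at 1.35, 2.14, 2.73 and 2.29 CPM in HAMSA and 14.3, 8.91, 7.96 and 6.20 CPM in NP (-2.15 ± 0.51, adjusted p = 0.0495, edgeR). Mrc1, the mannose receptor of macrophages and sinus endothelium, was at 2.99, 4.33, 1.93 and 4.005 CPM in HAMSA and 19.8, 11.4, 10.2 and 8.02 CPM in NP (-1.90 ± 0.40, adjusted p = 0.0381, edgeR). These were the 2 largest falls that the naming rule took, with NP 1 the highest library for both. Vcam1 (-1.995 ± 0.57), Mertk (-2.19 ± 0.61) and Axl (-1.65 ± 0.52), all known from red pulp macrophages, did not pass, while Lyz2 (0.14 ± 0.37) and Itgam (-0.08 ± 0.27), shared with monocytes, were near 0. With all genes of the other-cell lists left out before scaling, 224 genes passed, against 212. This removes the listed markers only, and RNA of those cells still counts in all other genes. With the T cell score as a covariate 0 passed in edgeR (1534 at an unadjusted p under 0.05), and with the erythroid score 65. Both scores were higher in most HAMSA libraries, so these fits cannot tell diet and other cells apart.

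**Figure D4:**
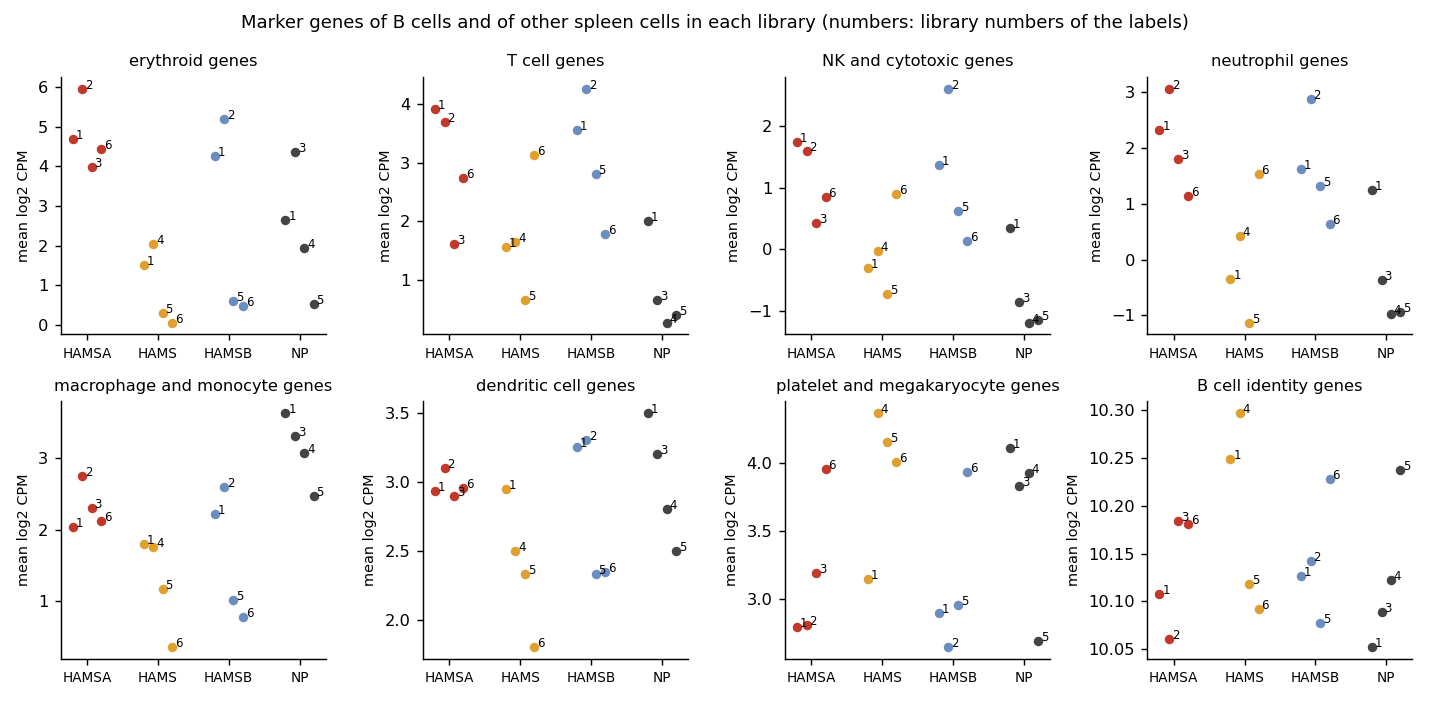
Panels give the mean log2 CPM (vertical axes) of 8 marker lists in each library of HAMSA, HAMS, HAMSB and NP, with the library number beside each point. T cell, NK and neutrophil lists are higher in all 4 HAMSA libraries than in NP 3, 4 and 5, the macrophage list is highest in NP 1, 3 and 4, and the B cell list spans 10.1 to 10.2 in both diets.

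Genes that rose and genes that fell differed in structure. In GENCODE M21, the 91 genes that rose had a median exonic length of 2731 bases and a GC content of 54.8% in their longest transcript. The 118 of 121 genes that fell and had a gene model had medians of 5082 bases and 47.3%, and all tested genes 3836 bases and 49.6%. Protein-coding genes made up 93.4% of those that rose and 78.8% of those that fell, against 83.9% of all tested. In the quartile of tested genes with the highest GC content, 53 of 3708 rose and 14 fell, and in the quartile with the lowest, 6 rose and 33 fell. By library, the median deviation of the GC-richest quartile exceeded that of the GC-poorest by 0.34 in HAMSA 2 and 0.60 in HAMSA 3 on the log2 scale, but by -0.04 in HAMSA 1 and -0.09 in HAMSA 6, and by -0.27 to 0.10 in NP. For exonic length, the longest quartile minus the shortest gave -0.45 in HAMSA 2 and -0.56 in HAMSA 3, -0.02 in HAMSA 1 and 0.12 in HAMSA 6, against 0.0073 to 0.14 in NP. With offsets for GC content and length, 584 genes passed (274 higher, 310 lower), 155 of them among the 212. Of the 43 named calls, 29 stayed past the threshold. All 43 kept their sign, which adds no support as they were picked from these data. With HAMSA 1 and 6 alone, 8 genes passed, among them Ier2, Acp2 and Junb.

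**Figure D5:**
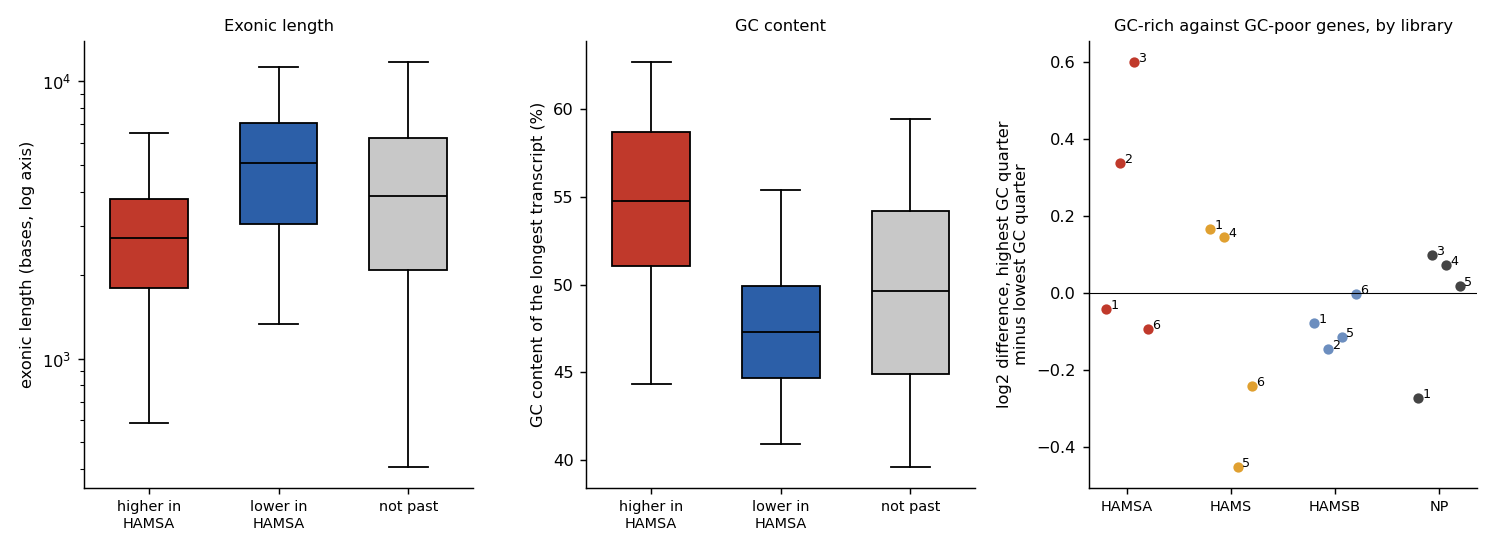
Boxes give exonic length (bases, log axis) and GC content (percent) of genes higher in HAMSA, lower in HAMSA and not past the threshold, with medians, quartiles and whiskers from the 5th to the 95th percentile. The right panel gives, for each library, the median log2 deviation of the GC-richest quartile of genes minus that of the GC-poorest, where HAMSA 2 and 3 lie above all other libraries.

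HAMS, the starch without the acid, was set beside HAMSA. In HAMSA against HAMS 0 of 15021 genes passed (smallest adjusted p 0.3003, edgeR), with 1751 (11.7%) at an unadjusted p under 0.05, 103 passing in DESeq2 and 0 in limma voom. HAMS against NP gave 650 genes (4.33%), 341 higher (2.27%) and 309 lower (2.06%), and HAMSB, the starch with butyrate, against NP 11 (0.0732%, all lower). These comparisons share the 4 NP libraries with HAMSA against NP, so their values are given side by side without a further test. Ier2 was at 119.9, 149, 115 and 157 CPM in HAMS 1, 4, 5 and 6 and at 55.8, 63.1, 78.6 and 76.1 CPM in HAMSB 1, 2, 5 and 6, and its log2 fold change over NP was 0.95 ± 0.12 in HAMSA, 1.21 ± 0.12 in HAMS and 0.22 ± 0.12 in HAMSB. Cd180 had -0.77 ± 0.14, -1.15 ± 0.14 and -0.15 ± 0.14 over NP in HAMSA, HAMS and HAMSB, and Slamf7 -0.76 ± 0.13, -1.19 ± 0.13 and 0.01 ± 0.13. For Acp2 the same 3 values were -0.87 ± 0.13, -1.03 ± 0.12 and -0.47 ± 0.12, and for Per3 -0.74 ± 0.14, -0.67 ± 0.14 and -0.59 ± 0.14.

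Klf2 and Jund were nearer to 0 in HAMS than in HAMSA. Klf2 stood at 0.70 ± 0.15, 0.19 ± 0.15 and 0.06 ± 0.15 over NP in HAMSA, HAMS and HAMSB, and Jund at 1.05 ± 0.16, 0.52 ± 0.16 and -0.00 ± 0.16. Their difference between HAMSA and HAMS was 0.51 ± 0.15 for Klf2 and 0.53 ± 0.16 for Jund (adjusted p = 0.3 and 0.314, edgeR), neither past the threshold. Between HAMSA and HAMS, Ier2 differed by -0.26 ± 0.12, Hspd1 by -0.43 ± 0.19 and Cd180 by 0.37 ± 0.14 (log2 scale, SE), and none of the 3 passed. The heat shock list had a median of 0.49 over NP in HAMSA, 1.07 in HAMS and -0.04 in HAMSB, and the immediate early list 0.46, 0.71 and 0.13. In HAMSA against HAMS the erythroid genes had a median of 3.91 and the T cell genes 1.31, so markers of other cells were not matched between these 2 diets. Nor was the excess of the GC-richest over the GC-poorest quartile of genes. It was -0.04, 0.34, 0.60 and -0.09 in HAMSA 1, 2, 3 and 6, and 0.17, 0.15, -0.45 and -0.24 in HAMS 1, 4, 5 and 6. Its part in the Klf2 and Jund values was not tested.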

How the data were processed

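Per the labels, poly(A) RNA of negatively selected splenic B cells was made into stranded libraries, and 4 HAMSA and 4 NP libraries were compared. The submitters' processing notes name STAR as aligner and featureCounts (Subread) as counter, and their versions, the build and the annotation are not given in the sources used here. What the authors deposited is a table with the raw count per gene and library. Reads that map to several places, or to no exon, are left out, which lowers counts of near-identical genes. Of the identifiers 37607 were matched to GENCODE M21, from which the gene lengths and GC contents were computed. The labels do not say that libraries came from separate animals, so p-values measure only the spread between these libraries, which may be technical.

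The analysis used edgeR 4.0.16 in R 4.3.3. Genes passed filterByExpr (minimum count 10) and libraries were scaled by TMM. All 16 libraries entered 1 negative binomial fit with a mean for each diet, which left 12 residual degrees of freedom, so that the other diets add to the estimate of spread. HAMSA was tested against NP, and secondarily against HAMS, with the quasi-likelihood F-test and Benjamini-Hochberg adjustment over all 15021 genes at 0.05. Variation between libraries of a diet was 22.1%. CPM are TMM-scaled. Library measures were compared by an exact permutation test.

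The comparison, the 51 gene lists (945 distinct genes, all matched, 36 entries under the filter) and the rule for named genes were chosen with earlier results of these data known. The rule took, at an average log2 CPM of at least 1, the 12 largest rises and 12 largest falls past the threshold without overlap between libraries, then up to 4 called members of each list by p (or 2 by smallest p), all acetate receptor and carrier genes, and the 2 genes on each side of the threshold. Immunoglobulin segments, pseudogenes and clone names were left out. Promoters are RefSeq's (GRCm38.p6), searched on both strands. The fit was tested on simulated data. Alternatives included DESeq2 1.42.0, limma 3.58.1 (voom), other scalings and filters, each library left out, blocks by library number and covariates for read classes and other cells. HAMSA 1 and 6 alone, and offsets for GC content and length, were added after the data were seen.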

Additional observations from a re-analysis of the deposited data

Results flagged for a closer look

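In 116 groups of 4 libraries (43 called and named genes and 15 library measures, in HAMSA and in NP), 8 held 1 library far from the other 3 by Dixon's test (6.9%), and chance gives about 1 in 20. In HAMSA, library 2 was low for Dynlt1c (4.85 CPM), a gene with near-identical copies, and library 1 had the most gene counts (30723337). In NP, library 1 was low for Cd22 (2054 CPM) and Zc3h6 (17.2 CPM), high for Hspd1 (136 CPM), and high in the mean level of mast cell and basophil genes (1.26 on the log2 CPM scale). NP 5 was low for Slamf7 (20.4 CPM) and Tusc1 (5.53 CPM). For Cd22, Zc3h6, Hspd1 and Slamf7 the NP library that stood apart was the one nearest to the HAMSA libraries.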

How the results depend on the processing

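The 212 genes that passed in HAMSA against NP became 1295 with DESeq2, 83 with limma voom, 344 with library totals in place of TMM, 75 without a filter, 387 when only the 2 diets were fitted and 584 with offsets for GC content and length. They became 9 with the outside-exon percentage in the model, 65 with the erythroid score, 0 with the T cell score and 8 with HAMSA 1 and 6 alone. Within library numbers 1 to 4 there were 2992, and within numbers 5 and 6, which leave 1 library a diet, 0 in edgeR (1271 at an unadjusted p under 0.05), with the lone library taken to vary like the rest. Leaving out 1 library gave 0 to 589 (203 without NP 1, 161 without HAMSA 3). RLE scaling (189), a filter of 1 CPM (238), omission of other-cell genes (224) or immunoglobulin genes (205), thinning (143) and robust dispersion (194) stayed within 1.5 times. For HAMSA against HAMS, 0 became 103 with DESeq2, 13 within numbers 1 to 4, 7 within numbers 5 and 6, 1 with the outside-exon covariate, 1 with GC and length offsets and 0 to 26 when 1 library was left out (26 without HAMSA 6, 3 without HAMS 1). The causes were not tested.

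HAMSA and NP share only library numbers 1 and 3, and the deviations of same-numbered libraries correlated at 0.223 and 0.0013. Over all diets the 15 same-numbered pairs correlated at -0.25 to 0.491 (median 0.189), and other-numbered pairs at a median of -0.0583. Not every pair was above 0.1 and no label ties the numbers, so they were not taken as pairs. With a replicate block 0 genes passed in edgeR (2710 at an unadjusted p under 0.05), and with the number set (1 to 4 or 5 and 6) as a factor 1531.

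All 43 named genes past the threshold kept their sign in each of the 28 settings in which they were tested. They were picked as past the threshold in the same data, so a kept sign was nearly fixed in advance and adds no support. The number still past the threshold ran from 0 to 43. Among the 63 named genes not past the threshold the sign changed in 29 combinations of gene and setting. Of 51 list medians 20 kept their sign in every setting, among them immediate early, heat shock, stress response, Toll-like receptor and marginal zone genes. Thinned to the depth of the shallowest library, a HAMSA one, 37 of the 43 stayed past the threshold.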
